A study of Mus musculus with 15 samples.

Results

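Chemokines are small secreted proteins that direct the migration of leukocytes, and they act on G protein-coupled receptors. The genes described here are the protein-coding rows of a mouse liver count table whose symbol is Ccl, Cxcl, Ccr, Cxcr, Cx3cl, Cx3cr, Xcl, Xcr or Ackr followed by a number and at most 1 letter. The rule took 66 of 54532 rows, which carry 60 symbols, 38 of ligands and 22 of receptors. Of these, 56 rows with 55 symbols were detected, meaning at least 1 count in at least 1 of the 15 libraries. 28 rows were detected in all 15 libraries, and 25 passed the low-count filter and were tested. 31 rows were detected but too low to test.

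The livers came from wild-type (WT) mice in 3 groups of 5 libraries. The first group is labelled control. The MTX group received 1 intraperitoneal injection of methotrexate at 20 mg/kg, and its livers were collected at 24 h. Methotrexate blocks folate metabolism and is used against cancer and autoimmune disease, with liver injury as a known side effect. The MTX+nitrate group received the same MTX dose after drinking water with 2 mM nitrate for 5 days. No group received nitrate alone, so its effect can be read only in mice that also had MTX. Strain, sex and age are not given in the labels used here. Whether every library stands for a separate mouse is not stated in the labels, so p-values refer to the spread among libraries, which may be technical. In whole liver, fewer cells of a type and less RNA per cell cannot be told apart.

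Chemokines of the CC class mostly attract monocytes, macrophages, eosinophils and lymphocytes, while those CXC chemokines that signal through CXCR2 attract neutrophils. In the liver they are made by Kupffer cells (the resident macrophages), endothelial cells, stellate cells and injured hepatocytes. Atypical receptors bind and remove chemokines without the usual G protein signal.

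Library totals ran from 16663967 to 19274497 counts. Levels are CPM, counts scaled to library size and corrected between libraries. Fold changes are on the log2 scale ± SE, and adjusted p-values come from edgeR's quasi-likelihood test with Benjamini-Hochberg adjustment over 14219 genes. A gene is said to have risen, fallen or been called when its adjusted p was under 0.05. The hepatocyte marker list, which includes albumin, summed to between 87407 and 133665 CPM over the 15 libraries, with no gene of the list at 0 in any group. Each library had between 37 and 49 of the 66 rows detected, with 37 to 41 in control, 37 to 49 in MTX and 38 to 43 in MTX+nitrate.

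Cxcl12, the ligand of Cxcr4 that retains leukocytes and stem cells in tissue, dominated the set. It supplied 69.2 to 72.6% of all chemokine and receptor counts in control libraries, 50.0 to 65.2% in MTX and 63.4 to 74.9% in MTX+nitrate. Per kilobase of the gene length given in the table, the mean control level of Cxcl12 was 38.7 CPM per kb. Ccl9 followed at 19.8, Cxcl1 at 4.56, Ccl6 at 2.43, Cxcl9 at 2.16 and Cxcl16 at 2.12 CPM per kb. The most abundant receptors per kilobase in control were Ackr2 at 1.99, Ackr1 at 1.67, Ccr3 at 1.35 and Cx3cr1 at 0.959 CPM per kb.

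Between MTX and control, 3 of the 25 tested genes rose and none fell. Across all genes tested, 3.66% were called, 2.06% as higher and 1.6% as lower. The 3 that rose were Ccl2 and Ccl6, ligands that attract monocytes and macrophages, and Ccr1, a receptor of monocytes, macrophages and neutrophils. At an unadjusted p under 0.05 there were 9 of 25, of which 7 were higher and 2 lower, against 21.9% of all genes tested. DESeq2 called 7, of which Cxcl12 was lower, and limma-voom called 0. The shares of all genes are those of edgeR. DESeq2 called more of all genes than edgeR did (counts in the last section), and the total of limma-voom is not given here. The median log2 fold change was 0.18 over the 25 and -0.00074 over all genes tested.

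Between MTX+nitrate and MTX, 5 of the 25 fell and none rose. Across all genes tested, 4.31% were called, 1.94% as lower and 2.37% as higher. The 5 were Cxcl1, a neutrophil attractant, Ccl9, Ccl2, Ccl6 and Ccr1. At an unadjusted p under 0.05 there were 10 of 25, of which 8 were lower and 2 higher, against 22.4% of all genes tested. DESeq2, which again called more of all genes than edgeR, called 6, of which Cx3cl1 was higher. Limma-voom called 2, Cxcl1 and Ccl9. The median log2 fold change was -0.23 over the 25 and 0.01 over all genes tested. Both comparisons use the same 5 MTX libraries, so their opposite directions are not independent.

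**Figure D1:**
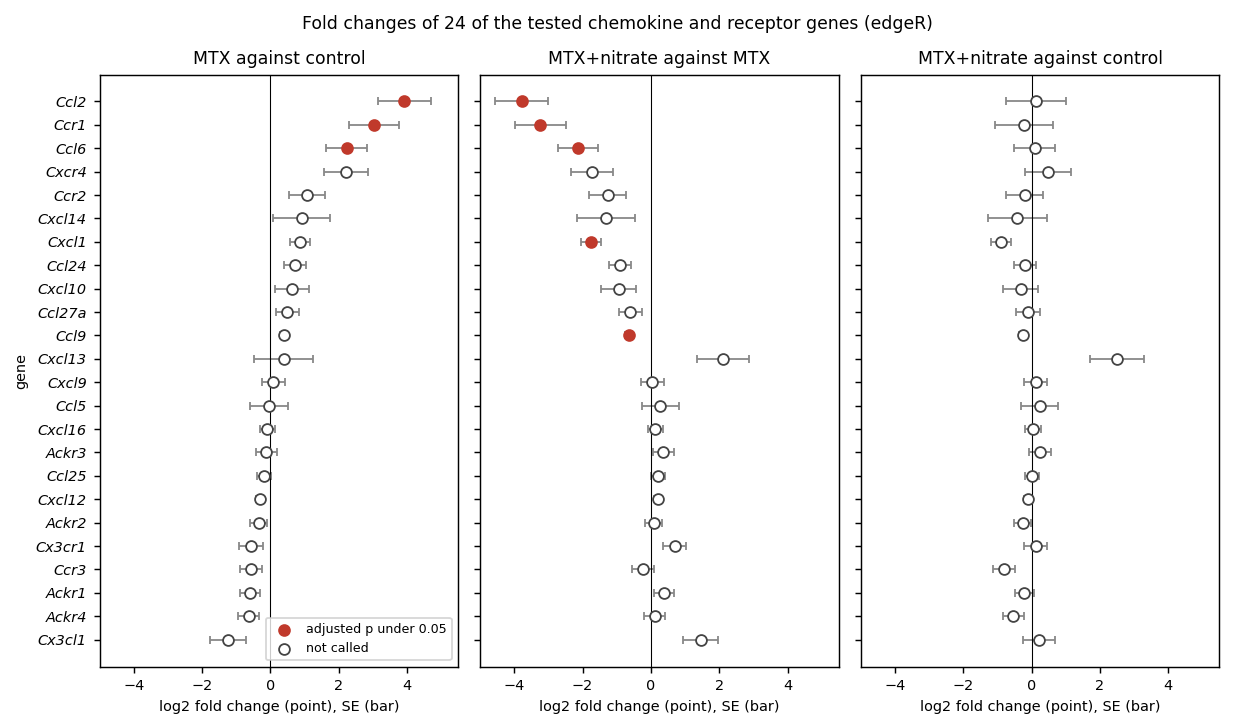
log2 fold change (point) and SE (bar) of 24 of the 25 tested chemokine and receptor genes in the 3 comparisons, ordered by MTX against control, with genes at an adjusted p under 0.05 filled. Ccl2, Ccr1 and Ccl6 are filled on the right of 0 for MTX against control, the same 3 with Cxcl1 and Ccl9 on the left for MTX+nitrate against MTX, and none for MTX+nitrate against control.

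The called genes differ in the letters next to their transcription starts, which are shown because κB sites, bound by NF-κB, are a known feature of inflammatory chemokine promoters. RefSeq windows on GRCm38.p6 from 250 bases before to 50 bases after the start were matched by symbol for 4 of the 5 called genes, for 20 of the 25 tested and for 45 of the 60 symbols. Ccl2 was not among the matched. The windows are chr5:90890995-90891294 on the plus strand for Cxcl1, chr11:83578587-83578886 on the minus strand for Ccl9, chr9:123968643-123968942 on the minus strand for Ccr1 and chr11:83593038-83593337 on the minus strand for Ccl6. Capitals mark matches to the κB consensus on either strand, and Cxcl1 has a pair of overlapping matches.
Cxcl1: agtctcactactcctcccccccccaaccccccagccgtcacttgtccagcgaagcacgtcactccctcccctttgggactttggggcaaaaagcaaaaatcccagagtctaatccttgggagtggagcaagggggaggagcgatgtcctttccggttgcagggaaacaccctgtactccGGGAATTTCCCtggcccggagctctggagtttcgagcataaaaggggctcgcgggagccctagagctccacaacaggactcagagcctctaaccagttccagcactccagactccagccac
Ccl9: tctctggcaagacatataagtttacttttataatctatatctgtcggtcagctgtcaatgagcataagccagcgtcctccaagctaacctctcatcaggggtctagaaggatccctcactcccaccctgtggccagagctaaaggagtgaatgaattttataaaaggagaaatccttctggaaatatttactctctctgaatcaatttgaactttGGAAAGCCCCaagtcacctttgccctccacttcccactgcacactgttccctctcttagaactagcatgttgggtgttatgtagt
Ccr1: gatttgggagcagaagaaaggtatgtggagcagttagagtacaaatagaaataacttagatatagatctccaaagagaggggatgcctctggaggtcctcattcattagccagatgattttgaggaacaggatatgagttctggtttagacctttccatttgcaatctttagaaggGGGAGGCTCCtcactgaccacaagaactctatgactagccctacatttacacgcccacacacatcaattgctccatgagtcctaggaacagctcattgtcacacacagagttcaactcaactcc
Ccl6: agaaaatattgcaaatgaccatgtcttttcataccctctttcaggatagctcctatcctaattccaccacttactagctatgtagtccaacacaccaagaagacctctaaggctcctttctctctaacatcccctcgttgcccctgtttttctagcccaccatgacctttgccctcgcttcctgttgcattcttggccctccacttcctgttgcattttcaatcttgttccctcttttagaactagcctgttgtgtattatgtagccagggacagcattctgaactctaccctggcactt
The κB consensus was present in 3 of these 4 windows and not in that of Ccl6. It was present in 7 of 23 windows of tested genes (30.4%), in 12 of 52 windows of all 45 symbols (23.1%) and in 8.46% of 32851 promoters in the table. Another 3 motifs were searched on both strands. The AP-1 motif TGANTCA was in the Ccl9 window alone of the 4 and in 7.81% of all promoters. The string TATAAA, a form of the TATA box, was likewise in the Ccl9 window alone and in 13.6% of all promoters. Its matches in the Ccl9 window all lay well upstream of the transcription start. Only this exact string was searched, at any position in the window, so the search cannot tell which of these genes have a TATA box. The GC box, as GGGCGG, was in none of the 4 windows and in 35.7% of all promoters. A match describes letters only.

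Among ligands for monocytes and macrophages, 4 of 9 rows were tested, and they are taken first. Ccl2 (MCP-1, the main ligand of Ccr2 on inflammatory monocytes) lies on GRCm38 chromosome 11 from 82035571 to 82037453. Its levels in control libraries 1 to 5 were 0.108, 0.278, 0.222, 0.789 and 0.539 CPM. In MTX libraries 1 to 5 they were 10.9, 4.86, 0.408, 1.35 and 12.2 CPM, and in MTX+nitrate libraries 1 to 5 they were 1.10, 0.265, 0.246, 0.275 and 0.226 CPM. MTX libraries 1, 2, 4 and 5 lay above every control and every MTX+nitrate library, while MTX library 3 lay within both ranges. The log2 fold change was 3.92 ± 0.78 for MTX against control, a 15.1-fold difference (adjusted p = 0.0175). For MTX+nitrate against MTX it was -3.79 ± 0.77, 13.8-fold lower (adjusted p = 0.0203). The rise was no longer called without control library 1 (log2 3.68, adjusted p = 0.0513) or without MTX library 1 (log2 3.58, adjusted p = 0.0526), and the fall was called in all 10 fits that left out 1 library. Limma-voom called neither (adjusted p = 0.140 and 0.138).

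Ccl6, a mouse CC chemokine that acts on Ccr1, lies on chromosome 11 from 83587882 to 83593087. Control libraries 1 to 5 held 3.35, 4.01, 3.33, 3.73 and 7.43 CPM of Ccl6, MTX libraries 1 to 5 held 21.3, 15.7, 3.90, 5.23 and 56.6 CPM, and MTX+nitrate libraries 1 to 5 held 3.36, 3.71, 10.3, 3.52 and 2.31 CPM. MTX libraries 1, 2 and 5 were above all others, and MTX libraries 3 and 4 were within the control range. Ccl6 was 4.71-fold higher in MTX than in control (log2 2.24 ± 0.59, adjusted p = 0.0468) and 4.41-fold lower in MTX+nitrate than in MTX (log2 -2.14 ± 0.59, adjusted p = 0.0492). Both values were close to the threshold. The rise was called in 2 of 10 fits that left out 1 library, those without MTX 3 or MTX 4, and the adjusted p reached 0.111 without control 1. The fall was called in 3 of 10, those without MTX 3, MTX 4 or MTX+nitrate 3. Without MTX library 5 the log2 fold changes were 1.40 (adjusted p = 0.0889) and -1.31 (adjusted p = 0.125). With length and GC offsets, as with limma-voom, Ccl6 was called in neither comparison.

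Ccl9, another mouse CC chemokine that acts on Ccr1 (chromosome 11, 83572919 to 83578636), changed less in size and more evenly. Its levels were 52.6, 56.9, 71.2, 55.1 and 64.9 CPM in control libraries 1 to 5, 73.0, 92.9, 77.9, 62.0 and 88.2 CPM in MTX, and 43.6, 52.1, 59.8, 47.3 and 51.2 CPM in MTX+nitrate. Every MTX+nitrate library lay below every MTX library, which held for none of the other 24 tested genes in this comparison and for 2.95% of all genes tested. The fall was 1.55-fold (log2 -0.63 ± 0.12, adjusted p = 0.0151). It was called in all 10 fits that left out 1 library and in all 9 other settings, with adjusted p between 0.000146 and 0.0405. Against control, MTX was higher by log2 0.39 ± 0.12 (adjusted p = 0.0706), with overlap between MTX library 4 and control libraries 3 and 5. This difference was called without MTX library 4, with DESeq2 and with length and GC offsets.

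Ccl5, a chemokine made by T cells and NK cells, was between 0.175 and 0.959 CPM in all 15 libraries and was called in no comparison (log2 -0.03 ± 0.56 for MTX against control, adjusted p = 0.979). The other 5 rows for monocyte and macrophage ligands, Ccl7, Ccl3, Ccl4, Ccl12 and Ccl8, were below the filter and are given further on by count.

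Cxcl1 (KC in mouse, on chromosome 5 from 90891241 to 90893115) is a ligand of Cxcr2, the receptor that brings neutrophils into tissue. Its levels were 9.51, 7.07, 6.43, 8.89 and 10.8 CPM in control libraries 1 to 5, 20.1, 7.91, 13.6, 20.3 and 15.7 CPM in MTX, and 3.30, 3.60, 2.46, 8.41 and 5.25 CPM in MTX+nitrate. MTX+nitrate library 4 at 8.41 CPM and MTX library 2 at 7.91 CPM were the only overlap between those groups. The fall with nitrate was 3.37-fold (log2 -1.75 ± 0.30, adjusted p = 0.0102), and it was called in all 10 fits that left out 1 library and in all 9 other settings (adjusted p up to 0.0320). MTX was above control by log2 0.86 ± 0.29 (adjusted p = 0.101), with 4 of 5 MTX libraries above every control. MTX+nitrate was below control by log2 -0.90 ± 0.30 (adjusted p = 0.128), with 4 of 5 libraries below every control. DESeq2 called both of these (adjusted p = 0.0402 and 0.0410), and edgeR without MTX+nitrate library 4 called the difference between MTX+nitrate and control (log2 -1.23, adjusted p = 0.0447).

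**Figure D2:**
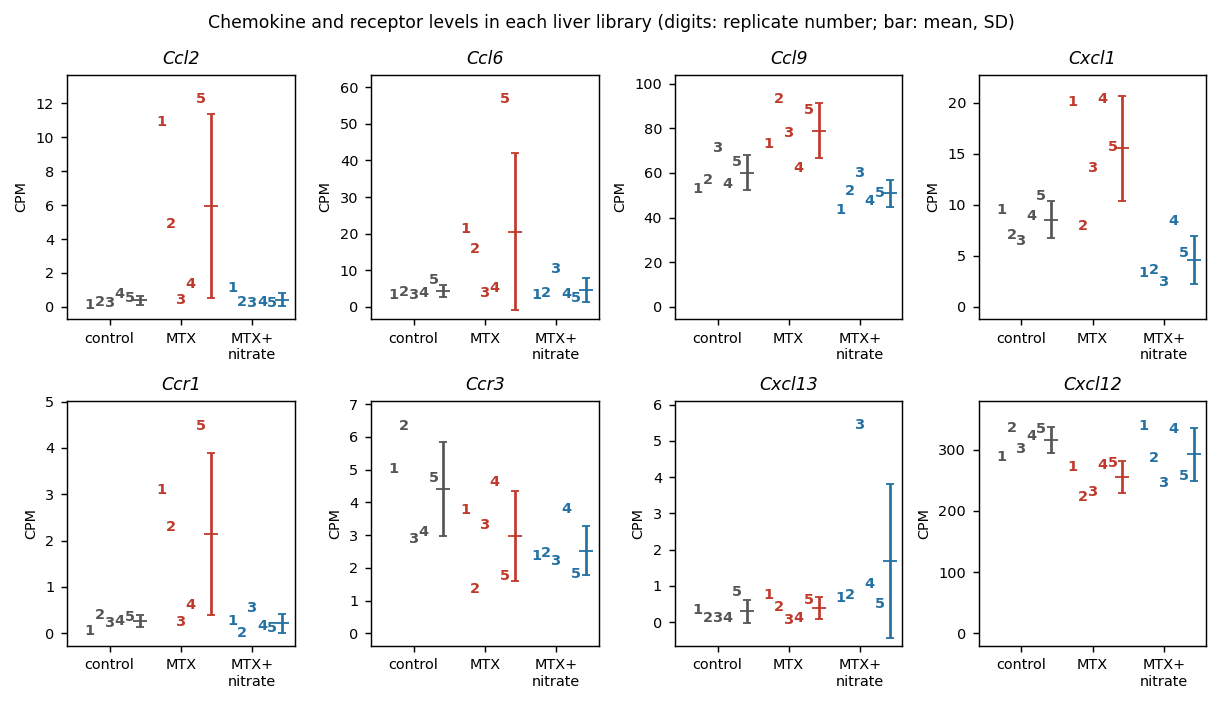
Level (CPM) of 8 chemokine and receptor genes in each of the 15 libraries, drawn as the replicate number, with the group mean and SD as a bar. Ccl2, Ccl6 and Ccr1 are highest in MTX libraries 1, 2 and 5, while Ccl9 separates all MTX from all MTX+nitrate libraries.

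Of the receptors, 10 of 22 were tested and Ccr1 was called. Ccr1 (chromosome 9, 123962124 to 123968692) binds Ccl6, Ccl9, Ccl3 and Ccl5 in mouse. It was at 0.054, 0.390, 0.222, 0.263 and 0.359 CPM in control libraries 1 to 5, at 3.08, 2.29, 0.233, 0.616 and 4.48 CPM in MTX, and at 0.262, 0, 0.540, 0.165 and 0.113 CPM in MTX+nitrate. MTX libraries 1, 2, 4 and 5 were above every library of the other groups, and MTX library 3 was within both ranges. Ccr1 was 8.15-fold higher in MTX than in control (log2 3.03 ± 0.74, adjusted p = 0.0344) and 9.45-fold lower in MTX+nitrate than in MTX (log2 -3.24 ± 0.75, adjusted p = 0.0286). The rise was called in 4 of 10 fits that left out 1 library and was lost without control 1, 3, 4 or 5 or MTX 1 or 2, with adjusted p up to 0.0834 and log2 values from 2.57 to 3.32. The fall was also called in 4 of 10 and was lost without MTX 1, 2 or 5 or MTX+nitrate 1, 2 or 4, with adjusted p up to 0.0626. Limma-voom called neither difference.

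Ccr2 and Ccr3 were not called. Ccr2, the receptor of inflammatory monocytes for Ccl2 and Ccl7, was at 1.71 ± 0.590 CPM in control, 3.60 ± 2.60 in MTX and 1.49 ± 1.05 in MTX+nitrate (SD, n = 5). Its log2 fold change was 1.07 ± 0.53 for MTX against control (adjusted p = 0.249) and -1.27 ± 0.54 for MTX+nitrate against MTX (adjusted p = 0.172). Ccr3, the eosinophil receptor (chromosome 9, 124021972 to 124031689), had 1 of the 3 lowest p-values for MTX+nitrate against control. It was at 5.03, 6.34, 2.88, 3.10 and 4.73 CPM in control libraries 1 to 5, 3.76, 1.35, 3.32, 4.62 and 1.75 CPM in MTX, and 2.36, 2.44, 2.21, 3.79 and 1.81 CPM in MTX+nitrate. Only MTX+nitrate library 4 lay within the control range. The difference from control was log2 -0.81 ± 0.32 and was not called (adjusted p = 0.193).

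Cxcr4, the receptor of Cxcl12 on most leukocytes, was at 0.270, 0.723, 0.333, 0.263 and 0.240 CPM in control libraries 1 to 5, 3.64, 2.29, 0.116, 0.616 and 1.94 CPM in MTX, and 0.577, 0.795, 0.393, 0.165 and 0.621 CPM in MTX+nitrate. MTX libraries 1, 2 and 5 exceeded all others. Its log2 fold change was 2.21 ± 0.64 for MTX against control (adjusted p = 0.0627) and -1.74 ± 0.62 for MTX+nitrate against MTX (adjusted p = 0.112), so edgeR called it in neither. Without MTX library 3 edgeR called it in both, and DESeq2 called it for MTX against control (adjusted p = 0.0147). Cx3cr1, the fractalkine receptor of patrolling monocytes and some macrophages, was at 4.32 ± 1.92, 2.91 ± 1.33 and 4.70 ± 1.00 CPM (SD, n = 5) in control, MTX and MTX+nitrate. It was not called, and its annotated region overlaps those of other genes.

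The 4 atypical receptors were all tested. They are Ackr1, which holds chemokines on endothelium and red cells, Ackr2, a scavenger of inflammatory CC chemokines, Ackr3, which takes up Cxcl12, and Ackr4, which takes up Ccl19, Ccl21 and Ccl25. None was called in any comparison by edgeR, DESeq2 or limma-voom, and none had an unadjusted p under 0.05 in edgeR. All 4 had log2 fold changes below 0 for MTX against control, from -0.12 ± 0.32 for Ackr3 to -0.63 ± 0.30 for Ackr4, although Ackr3 ran from -0.27 to 0.07 over the 19 alternatives. All 4 were above 0 for MTX+nitrate against MTX, from 0.08 ± 0.25 for Ackr2 to 0.39 ± 0.29 for Ackr1, although over the alternatives Ackr2 ran from -0.11 to 0.26 and Ackr4 from -0.07 to 0.23. This comparison shares the MTX libraries. For comparison, 49.9% of all genes tested were above 0 in the first and 51.3% in the second.

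Cxcl12 (chromosome 6, 117168535 to 117181367) was at 288, 335, 301, 322 and 334 CPM in control libraries 1 to 5, 272, 223, 231, 275 and 278 CPM in MTX, and 339, 286, 245, 335 and 258 CPM in MTX+nitrate. Every MTX library lay below every control library, a separation in this direction shared by 2.26% of all genes tested and by no other of the 25. The difference was log2 -0.30 ± 0.10 and was not called by edgeR (adjusted p = 0.101), while DESeq2 called it (adjusted p = 0.0479). Cx3cl1, a membrane-bound ligand of endothelial and epithelial cells, was at 1.89, 1.50, 1.39, 1.58 and 0.599 CPM in control libraries 1 to 5, 0.308, 0.937, 0.233, 0.123 and 1.33 CPM in MTX, and 2.20, 1.27, 0.786, 1.26 and 2.60 CPM in MTX+nitrate. MTX libraries 1, 3 and 4 were the lowest of the 15. Its log2 fold change was -1.24 ± 0.52 for MTX against control (adjusted p = 0.174) and 1.45 ± 0.52 for MTX+nitrate against MTX (adjusted p = 0.113), and DESeq2 called the second.

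Between MTX+nitrate and control, none of the 25 was called by edgeR or limma-voom, and 3 had an unadjusted p under 0.05. Across all genes tested, 2.41% were called, 1.41% as higher and 0.992% as lower, and 17.6% had an unadjusted p under 0.05. DESeq2, which called more of all genes than edgeR here too, called Cxcl13 and Cxcl1. Cxcl13, which attracts B cells through Cxcr5 (chromosome 5, 95956951 to 95961068), had the lowest p. It was at 0.324, 0.111, 0.111, 0.105 and 0.839 CPM in control libraries 1 to 5, 0.740, 0.410, 0.0582, 0.123 and 0.605 CPM in MTX, and 0.682, 0.742, 5.45, 1.04 and 0.508 CPM in MTX+nitrate. MTX+nitrate library 3 was far above the rest, and MTX+nitrate libraries 1, 2 and 5 lay below control library 5. The log2 fold change was 2.51 ± 0.78 (adjusted p = 0.0990), and without MTX+nitrate library 3 it was log2 1.32 (adjusted p = 0.331). Ccl2, Ccr1 and Ccl6 were within log2 0.13 ± 0.87, -0.21 ± 0.85 and 0.09 ± 0.60 of control (adjusted p = 0.964, 0.930 and 0.959), with wide errors. Over the alternatives these 3 took both signs, from -0.60 to 0.57, from -0.89 to 0.10 and from -0.43 to 0.37.

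The remaining 7 tested ligands were called by neither edgeR, DESeq2 nor limma-voom in any comparison. Ccl24, an eosinophil attractant, was at 2.13 ± 0.919, 3.50 ± 1.30 and 1.85 ± 0.405 CPM (SD, n = 5) in control, MTX and MTX+nitrate. Its log2 fold changes were 0.72 ± 0.32 for MTX against control (adjusted p = 0.202) and -0.92 ± 0.32 for MTX+nitrate against MTX (adjusted p = 0.111). The interferon-induced ligands of Cxcr3 were at 6.52 ± 1.44, 6.93 ± 2.89 and 7.10 ± 3.72 CPM for Cxcl9 and at 1.85 ± 1.00, 2.85 ± 1.47 and 1.47 ± 1.05 CPM for Cxcl10, in the same order. Cxcl16, the ligand of Cxcr6, differed by less than the spread between libraries, at 6.40 ± 1.19, 6.02 ± 0.696 and 6.57 ± 2.40 CPM. Ccl25 was at 4.56 ± 0.970, 4.00 ± 0.935 and 4.61 ± 0.872 CPM, and Ccl27a at 1.24 ± 0.470, 1.75 ± 0.697 and 1.15 ± 0.368 CPM. Cxcl14 varied widely within groups, from 0.0582 to 6.11 CPM in MTX. Counting without strand could mix reads of Ccl25, Ccl27a, Cxcl10, Cxcl16 and Ackr4 with those of genes on the opposite strand. The labels used here do not give the strand setting of the counting, and Ackr1 overlaps Cadm3 on the same strand.

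**Figure D3:**
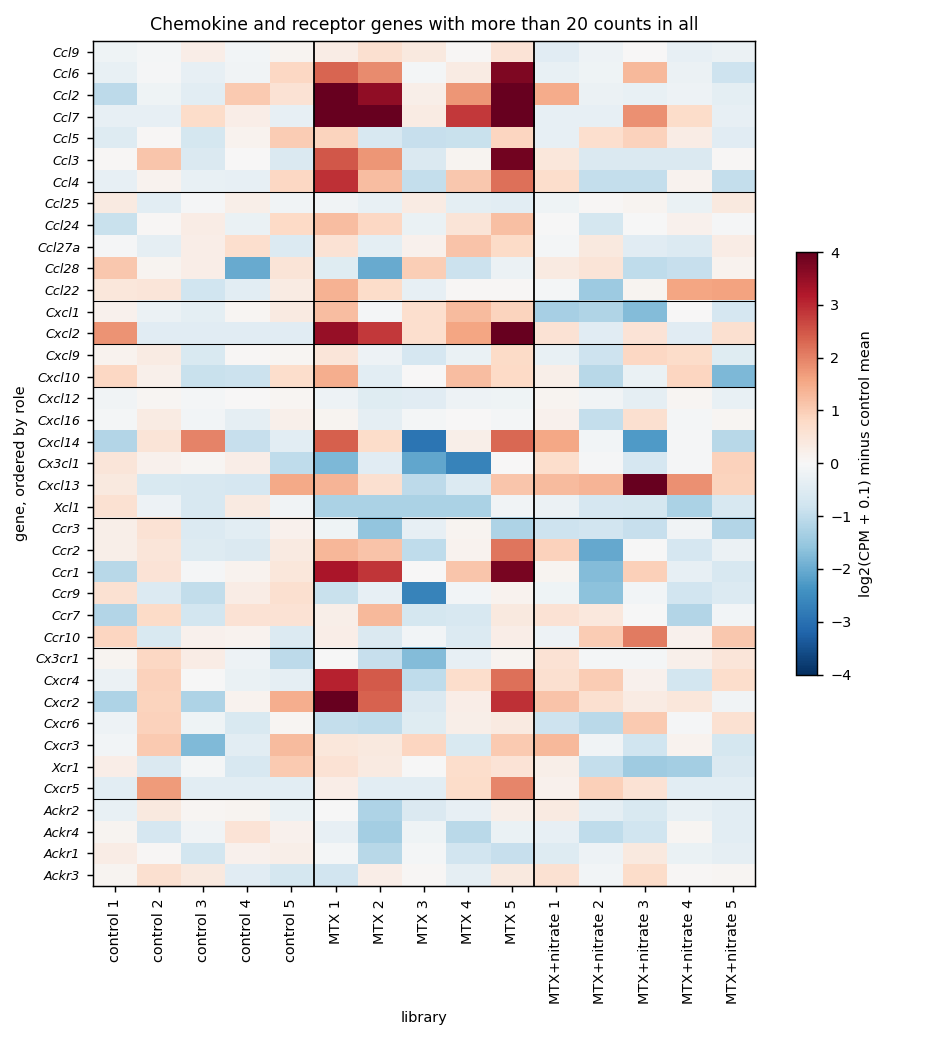
log2(CPM + 0.1) minus the control mean for 39 chemokine and receptor rows with more than 20 counts in all, by library, ordered by role, with colours saturating beyond 4 in either direction. Ccl2, Ccl7, Cxcl2, Ccr1, Cxcr4 and Cxcr2 are darkest in MTX libraries 1, 2 and 5.

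The filter asks for enough counts in 5 libraries, so genes that were high in fewer MTX libraries did not pass it, and they are given by count. Ccl7 (MCP-3, another Ccr2 ligand, chromosome 11, 82045712 to 82047525) had 0, 0, 2, 1 and 0 counts in control libraries 1 to 5, 68, 42, 1, 13 and 204 in MTX, and 0, 0, 7, 2 and 0 in MTX+nitrate. Only MTX library 3 overlapped the other groups. The 328 MTX counts against 3 in control gave a ratio of 119 (95% interval 40.2 to 578, counting error only). Without the filter, edgeR tested 27171 genes and called 1.39% of them in the comparison of MTX with control and 1.41% in that of MTX+nitrate with MTX. In that fit, Ccl7 was called in both comparisons, at log2 6.63 ± 1.08 (adjusted p = 0.00177) and -5.29 ± 0.94 (adjusted p = 0.00504). It was called in both when any 1 library was left out, and without MTX library 5 the values were 5.56 and -4.23.

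Cxcl2, a ligand of Cxcr2 like Cxcl1, had 7, 0, 0, 0 and 0 counts in control libraries 1 to 5, 23, 15, 2, 5 and 67 in MTX, and 2, 0, 2, 0 and 2 in MTX+nitrate. The unfiltered fit called it in both comparisons, at log2 4.02 ± 0.98 (adjusted p = 0.0352) and -4.27 ± 1.00 (adjusted p = 0.0315). All 7 control counts lay in control library 1. Without it the rise was still called (adjusted p = 0.00960), at a fitted log2 of 7.60 against control libraries that are all at 0, which is no bound. Without MTX library 5 it was called in neither (log2 3.04, adjusted p = 0.123 and log2 -3.29, adjusted p = 0.118), and other single libraries also ended the calls. The first was lost without control 2, 3, 4 or 5 or MTX 1 or 2 (adjusted p up to 0.0812), and the second without MTX 1 or MTX+nitrate 2 or 4 (adjusted p up to 0.0688). Without the filter, 5 of 56 chemokine and receptor rows were called for MTX against control, all higher (Ccl2, Ccl6, Ccl7, Ccr1 and Cxcl2). Of all genes in that fit, 0.773% were called as higher. For MTX+nitrate against MTX there were 7 of 56, all lower and adding Ccl9 and Cxcl1, and 0.596% of all genes were called as lower.

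The receptor Cxcr2, found mainly on neutrophils, had 0, 6, 0, 3 and 9 counts in control libraries 1 to 5, 59, 19, 1, 3 and 28 in MTX, and 8, 5, 4, 4 and 2 in MTX+nitrate. It was not called without the filter (adjusted p = 0.106 with MTX and 0.141 with nitrate added). Ccl3 (MIP-1 alpha) had 1, 4, 0, 1 and 0 counts in control, 12, 7, 0, 1 and 34 in MTX, and 2, 0, 0, 0 and 1 in MTX+nitrate (adjusted p = 0.132 and 0.0728). For Ccl4 (MIP-1 beta) the counts were 1, 2, 1, 1 and 4 in control, 22, 6, 0, 5 and 13 in MTX, and 4, 0, 0, 2 and 0 in MTX+nitrate (adjusted p = 0.219 and 0.127). In all 3, MTX libraries 1, 2 and 5 held the highest counts. Cxcl3 was found in MTX libraries 1, 2 and 5 alone, with 10, 3 and 7 counts. The 5 control and the 5 MTX+nitrate libraries had 0 counts of Cxcl3. With that 0 set at 3 counts over the group, its level in MTX came out 7.23-fold above control and 7.55-fold above MTX+nitrate. These ratios take the MTX counts as exact, so they are no lower limits, and MTX libraries 3 and 4 also had 0 counts. Ccl12 had 2 counts in control, 14 in MTX and 0 in MTX+nitrate, in sums over 5 libraries.

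**Figure D4:**
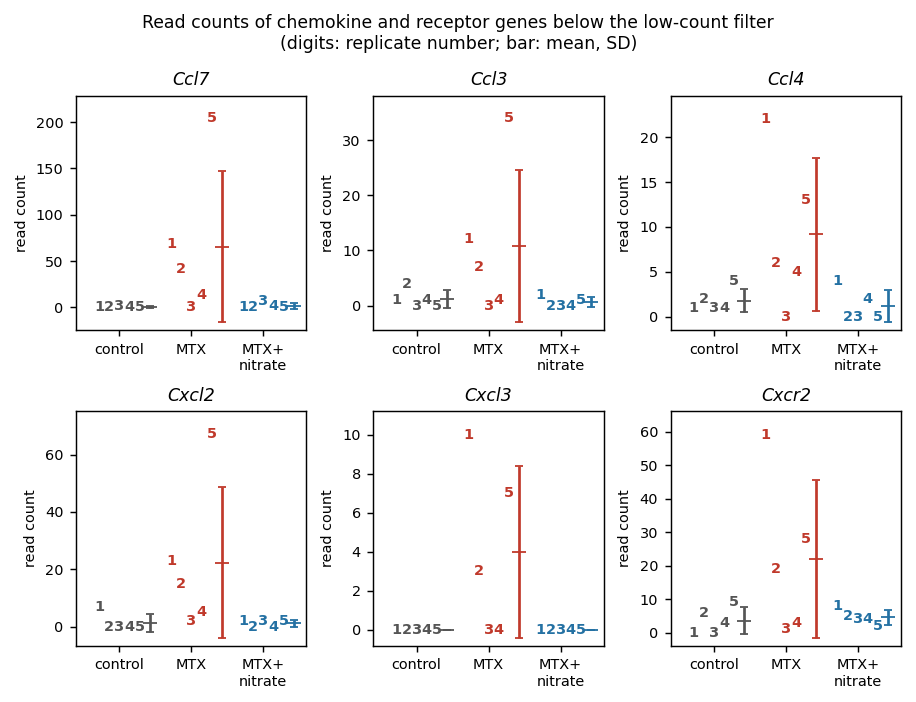
Read counts of 6 chemokine and receptor genes that did not pass the low-count filter, per library, drawn as the replicate number, with the group mean and SD as a bar. The highest counts of each lie in MTX libraries 1, 2 and 5, and most control and MTX+nitrate libraries are near 0.

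The other low rows had few counts in every group. Over the 15 libraries, Cxcr6 had 123 counts, Ccr9 115, Cxcr3 90, Ccl28 83, Xcr1 81, Ccr7 80, Ccl22 74 and Ccr10 61. These belong mostly to T cell, dendritic cell and epithelial pathways. Ccr10 had 14 counts in control, 10 in MTX and 37 in MTX+nitrate, with 18 as its highest in 1 MTX+nitrate library. Xcl1, an attractant of cross-presenting dendritic cells, had 14 counts in control, 2 in MTX and 5 in MTX+nitrate, and Cxcr5 had 6, 10 and 6. The following had at most 20 counts in all: Ccl8, Ccl11, Ccl17, Ccl20, Ccl27b, Ccr4, Ccr6, Ccr8, Cxcl5, Cxcl17, Cxcr1 and the scaffold rows of Ccl19, Ccl21a and Ccl27a, besides Ccl12 and Cxcl3. The 10 undetected rows were Ccl1, Ccl26, Cxcl15, a pair each of Ccl21b and Ccl21c, the chromosome 4 rows of Ccl19 and Ccl21a, and a second scaffold row of Ccl27a. Reads of such near-identical copies may be split or dropped by the counting. Each has 0 of 267554541 counts, which allows a level of up to 0.0112 CPM, for counting error only.

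Marker lists of monocytes and neutrophils moved with these genes across the MTX libraries. Within MTX, those of T and NK cells and of dendritic cells were also lowest in library 3 and highest in libraries 1 and 5. The T and NK cell list summed to 9.87, 6.39, 4.95, 5.66 and 6.96 CPM in MTX libraries 1 to 5 (3.55 to 7.85 in control). For the dendritic cell list these were 72.2, 68.7, 50.9, 66.7 and 87.8 CPM (63.1 to 192 in control). The lists of Kupffer cells and B cells were highest in MTX library 4 instead. In MTX libraries 1 to 5 these 2 lists summed to 490, 381, 386, 494 and 423 CPM and to 7.96, 4.63, 4.66, 8.80 and 8.35 CPM. The monocyte list, all 10 genes of which were tested, summed to 13.9 to 23.2 CPM in control and 14.6 to 27.7 in MTX+nitrate. In MTX libraries 1 to 5 it summed to 60.2, 37.5, 14.5, 31.8 and 70.5 CPM, so library 3 was the lowest and libraries 1 and 5 the highest, as for Ccl2 and Ccr1. Of the 10, 3 rose with MTX (Cd14, Itgax and F13a1), and Chil3 fell with nitrate, a call held in 3 of 10 fits that left out 1 library (adjusted p up to 0.0867). Of all genes tested, 2.06% rose with MTX, and against MTX 2.37% rose and 1.94% fell with nitrate. Cd14 and F13a1 were close to the threshold (adjusted p = 0.0487 and 0.0493) and among the fits leaving out 1 library were called only without MTX library 3, while Itgax (adjusted p = 0.0205) was lost only without MTX library 1 (adjusted p = 0.0573). The neutrophil list of 12 genes, 3 tested, summed to 3.47 to 9.87 CPM in control, 3.39 to 6.50 in MTX+nitrate and 22.9, 7.79, 2.10, 3.69 and 18.6 in MTX libraries 1 to 5. Its gene Stfa2l1 was at 0 in all control and all MTX libraries, and S100a8 fell with nitrate (adjusted p = 0.0395), a call kept only without MTX 3 or MTX 4. DESeq2 did not call S100a8, and it called S100a9 lower with nitrate and Csf3r higher with MTX. Of the monocyte list it called 5 higher with MTX and 3 lower with nitrate. Limma-voom called no gene of the monocyte and neutrophil lists in any comparison. The Kupffer cell list summed to 310 to 564, 381 to 494 and 307 to 477 CPM in control, MTX and MTX+nitrate, and edgeR called none of its 12 genes (3 and 1 at an unadjusted p under 0.05 in these comparisons), while DESeq2 called 2 higher with MTX (Cd68 and Marco) and 1 lower with nitrate (Cd68). Of the 12 Kupffer cell genes, 11 had log2 fold changes above 0 for MTX against control (median 0.19). For MTX+nitrate against MTX, which shares the MTX libraries, 11 were below 0 (median -0.14). Of all genes tested, 49.9% were above 0 in the first and 51.3% in the second. The part of these cell types in the chemokine differences was not tested.

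**Figure D5:**
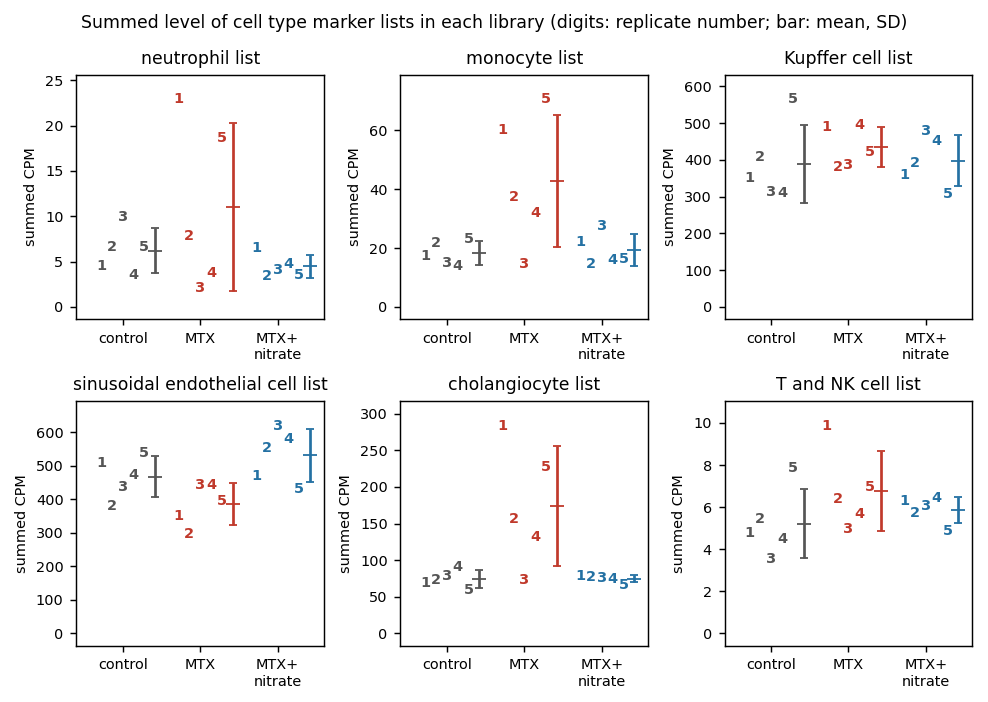
Summed CPM of 6 cell type marker lists in each library, drawn as the replicate number, with the group mean and SD as a bar. The monocyte, neutrophil and cholangiocyte lists are highest in MTX libraries 1 and 5, and the sinusoidal endothelial list is lowest in MTX library 2.

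Other lists moved as well. The cholangiocyte list summed to 58.9 to 91.2 CPM in control, 284, 157, 73.4, 132 and 227 in MTX libraries 1 to 5, and 66.5 to 78.4 in MTX+nitrate, with Spp1, which macrophages also express, and Sox9 higher in MTX. Leaving out 1 library at a time, the rise of Spp1 was called in 10 of 10 fits and that of Sox9 in 2 of 10 (adjusted p up to 0.114). Limma-voom called the rise of Spp1 and not that of Sox9. Sinusoidal endothelial markers summed to 380 to 539 CPM in control, 298 to 442 in MTX and 431 to 619 in MTX+nitrate, and 4 of 14 rose between MTX and MTX+nitrate (Stab1, Kdr, Flt4 and Oit3). These were called in 3, 4, 7 and 7 of 10 fits that left out 1 library. DESeq2 and limma-voom called all 4. With length and GC offsets Stab1, Kdr and Flt4 were not called, and with the replicate block and the offsets together none of the 4 was. Over the 9 other settings their edgeR, DESeq2 or limma-voom adjusted p reached 0.314, 0.140, 0.137 and 0.0821. In the T and NK cell list Il7r rose with MTX, 1 of 5 tested, and 3 of 10 hepatocyte markers rose (Fgb, Tat and Hnf4a). These 4 calls held in 7, 6, 4 and 2 of 10 such fits. EdgeR called none in the B cell, dendritic cell, stellate cell, and platelet and erythroid lists in any comparison, with 0 to 3 genes of each at an unadjusted p under 0.05, and DESeq2 called 1 (Rgs5 of the stellate cell list, lower with nitrate).

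Another 5 lists cover other genes of the pathway. In these, limma-voom called only Cebpb and Arrb1 for MTX+nitrate against MTX and Plcb3 for MTX+nitrate against control. Of all genes tested, edgeR called 2.06% as higher with MTX. With nitrate against MTX it called 2.37% as higher and 1.94% as lower. Among inducers and transcription factors of chemokine genes, 1 of 23 tested rose with MTX and 1 with nitrate. Il1b, the inflammatory cytokine, went from 1.10 ± 0.453 CPM in control to 3.99 ± 2.49 in MTX (SD, n = 5; log2 1.86 ± 0.45, adjusted p = 0.0329) and was at 3.18 ± 1.26 in MTX+nitrate. Its call was lost without control 1, 3 or 4 or MTX 1 or 2, with adjusted p up to 0.0882. Cebpb, an acute-phase transcription factor, rose from 98.0 ± 21.3 CPM in MTX to 162 ± 27.5 in MTX+nitrate (log2 0.72 ± 0.14, adjusted p = 0.0191), with no overlap between these groups, a separation upwards seen in 3.31% of all genes. This call held in all 10 fits that left out 1 library.

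Among adhesion molecules of leukocyte arrest, 2 of 14 rose with MTX and 1 fell with nitrate. Itgb2, the common chain of leukocyte integrins, went from 6.95 ± 1.56 to 16.6 ± 8.92 CPM (adjusted p = 0.0344) and was called only without MTX 3 or MTX 4 among the 10 fits that left out 1 library. Cd44, a hyaluronan receptor, went from 6.94 ± 2.47 to 18.1 ± 10.5 CPM with MTX (adjusted p = 0.0417) and to 7.25 ± 1.92 with nitrate (adjusted p = 0.0462), and these calls held in 3 and 2 of 10 such fits. The highest library was MTX 5 for both genes.

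Among genes that act on chemokine mRNA and protein, 1 of 15 rose with MTX and 2 fell with nitrate. Mmp12, a macrophage elastase that cleaves CXC and CC chemokines, was at 0.649, 1.56, 0.832, 0.210 and 0.180 CPM in control libraries 1 to 5, 13.3, 4.63, 0.233, 4.62 and 13.3 CPM in MTX, and 1.68, 0.212, 0.589, 0.165 and 0.339 CPM in MTX+nitrate. It again was highest in MTX libraries 1 and 5 and low in MTX library 3. It rose 10.4-fold with MTX (adjusted p = 0.0310) and fell 11.9-fold with nitrate (adjusted p = 0.0250), and these calls held in 4 and 6 of 10 fits that left out 1 library. Mmp9, the neutrophil and macrophage gelatinase, fell 9.44-fold with nitrate (adjusted p = 0.0250). This call was lost without MTX 1 or MTX+nitrate 2 or 3 (adjusted p up to 0.0671). EdgeR called no gene of the inducer, adhesion and turnover lists for MTX+nitrate against control, where 6, 0 and 3 had an unadjusted p under 0.05 and DESeq2 called 3 inducers (Hif1a, Il1b and Il6ra).

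Of 30 tested genes for signalling downstream of chemokine receptors, edgeR called none for MTX against control, and DESeq2 called Gng5. In that comparison 5 of the 30 had an unadjusted p under 0.05, against 21.9% of all genes tested. Log2 fold changes were above 0 for 25 of the 30 (83.3%, median 0.16), against 49.9% of all genes tested. For MTX+nitrate against MTX, which shares the MTX libraries, 12 of the 30 were above 0 (40%), against 51.3%. With nitrate against MTX, the beta-arrestin gene Arrb1 rose 1.29-fold (adjusted p = 0.0492) and the G protein subunit gene Gng5 fell 1.19-fold (adjusted p = 0.0482). Against control, the phospholipase gene Plcb3 was 1.31-fold higher in MTX+nitrate (adjusted p = 0.0327). Among the 10 fits that left out 1 library these were called in 1, 0 and 2. With length and GC offsets Arrb1, Gng5 and Plcb3 were not called. DESeq2 called all of them, and also Gnai3 and Rgs2 as lower with nitrate against MTX and Gnb2 as higher in MTX+nitrate than in control. None of 13 tested chemoattractant genes outside the naming rule was called by edgeR, DESeq2 or limma-voom, with 1, 4 and 2 at an unadjusted p under 0.05 in the 3 comparisons. Of these, Rarres2 (chemerin) was at 124 ± 10.5, 123 ± 11.3 and 101 ± 15.1 CPM, and C5ar1, the receptor of complement fragment C5a, at 2.41 ± 0.551, 3.89 ± 2.9 and 1.72 ± 0.469 CPM (SD, n = 5) in control, MTX and MTX+nitrate.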

How the data were processed

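Per the labels' protocols, total RNA was purified from whole liver with RNeasy columns and sequencing libraries were made with a SMARTer mRNA-seq kit. The counts used here were deposited by the authors as a single gene table, unnormalised, on GRCm38 (mm10) per the submitters' processing notes. Neither aligner, counter nor strand setting is given in the sources used here. All 15 columns were matched to libraries by title, and within groups the 30 pairs of libraries differed by 21.6 to 58.4 times the sampling variance, so none was a duplicate.

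From these counts, filterByExpr (minimum count 10) kept 14219 genes. Libraries were scaled by TMM and fitted together in edgeR 4.0.16 (R 4.3.3) by group, with 12 residual degrees of freedom, and Benjamini-Hochberg adjustment covered all genes tested. The fit was tested on simulated counts first. Precision at low levels is limited by depth: at these totals, 1 CPM corresponds to fewer than 20 counts.

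Values per library were given for each chemokine or receptor gene called in any comparison and for the 3 with the lowest p in each. A few genes outside this rule (Cxcl12, Cx3cl1, Cxcr4 and the low-count genes with values per library) were chosen after their values were seen. From the pathway lists, up to 4 called genes were named, or the 2 with the lowest p. The members and all lists (roles, pathways and cell type markers) were chosen with earlier results of these data known. Alternatives were DESeq2 1.42.0, limma-voom (limma 3.58.1), size factors by median of ratios, no filter, a filter of at least 1 CPM in 5 libraries, 2 groups at a time, a replicate block, length and GC offsets (mgcv 1.9.3), and leaving out each library. A name match that is not protein-coding (Cxcl11) was left out, and 1 tested gene is counted but not reported by name. Counts of low genes were compared by exact binomial intervals on TMM-scaled library sizes, which cover counting error only. Promoter windows came from a RefSeq table on GRCm38.p6.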

Additional observations from a re-analysis of the deposited data

Results flagged for a closer look

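In each of 72 sets of 5 libraries (24 tested genes in 3 groups), the highest or lowest library was compared with its nearest neighbour, and 9 stood apart by more than 0.71 of the set's range (Dixon's critical value). That value flags about 1 in 20 sets of normally distributed values. CPM need not follow that distribution, so the share that chance flags here is not known. All 9 were the highest library of their set. In MTX+nitrate, library 3 was apart for Cxcl13 (5.45 CPM, next 1.04), Ccl6 (10.3, next 3.71) and Ackr1 (3.00, next 1.96). MTX+nitrate library 1 was apart for Ccl2 (1.10 CPM, next 0.275), Ackr2 (7.86, next 4.95) and Cxcl14 (3.36, next 1.04). In control, library 5 was apart for Ccl6 (7.43 CPM, next 4.01), library 3 for Cxcl14 (4.66, next 1.61) and library 2 for Cxcr4 (0.723, next 0.333). No MTX library was apart by this measure for any of these 24 genes, although MTX had the widest ranges for Ccl2, Ccl6 and Ccr1. The cause of these values was not tested.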

How the results depend on the processing

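Cxcl1 and Ccl9 for MTX+nitrate against MTX were called under all 19 alternatives. The chemokine and receptor genes called for MTX against control, 3 as reported, were 7 with DESeq2, 0 with limma-voom, 5 without the filter, 1 with only the 2 groups compared and 0 to 5 when 1 library was left out. For MTX+nitrate against MTX, 5 as reported, they were 2 with limma-voom, 3 with only the 2 groups compared and 3 to 7 when 1 library was left out. For MTX+nitrate against control, 0 as reported, they were 2 with DESeq2 and 0 to 1 when 1 library was left out. All genes called, 521, 613 and 342 in the 3 comparisons in this order, were 1126, 1208 and 751 with DESeq2. When 1 library was left out they ran from 86 to 995, from 166 to 600 and from 99 to 312. For MTX+nitrate against MTX they were also 384 without the filter and 248 with only the 2 groups compared. Length and GC offsets left 363 (252 higher, 111 lower), 294 (96 higher, 198 lower) and 220 (103 higher, 117 lower), against 293 and 228, 337 and 276, and 201 and 141 as reported. The 15 correlations of same-numbered libraries between groups ran from -0.194 to 0.0636, and 0 were over 0.1, so the numbers did not pair the libraries. With the replicate block, 1, 3 and 0 chemokine and receptor genes and 142, 129 and 157 of all genes were called. With the block and the offsets together, these were 0, 2 and 0, and 79, 24 and 102. Over 11 fold changes of the genes that were called or had the lowest p, none reversed. For these, 80 of 110 fits leaving out 1 library kept the side of the threshold, 29 lost a call and 1 gained one, and among the other settings 72 kept it, 21 lost a call and 2 gained one. Ccr1 and Cxcl13 did not pass the filter of 1 CPM in 5 libraries and have no value there. At the lowest levels, such as those of Ccl2 and Ccr1 outside MTX, a library held few counts, so small differences were not detectable at this depth.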
